A study of Homo sapiens with 6 samples.

Results

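The 39 type I interferon-stimulated genes described here were chosen by name, as genes known to be induced by type I interferon, from the 21463 genes of the deposited tables, and all 39 were found there. Their messenger RNA was read in 6 libraries, 3 resistant and 3 parental, from HCC827, PC9 and H1975, 3 human lines of non-small cell lung cancer with a mutated EGFR. The resistant HCC827 and PC9 cells were gefitinib-selected sublines of parents whose EGFR mutation is labelled E19Del; gefitinib is a reversible inhibitor of the EGFR kinase. The resistant H1975 cells were an osimertinib-selected subline of a parent labelled L858R/T790M, and osimertinib is a covalent inhibitor that also binds the T790M receptor. Selection took 90 days with increasing drug, and the labels give inhibitory concentrations (IC50) of 4.288 to 12.485 µM for the resistant cells and 0.016 to 0.07 µM for the parental cells. Each line has 1 library per state. The labels do not say whether a resistant subline is a clone or whether the drug was present at harvest. Nor do they say whether any libraries came from repeat cultures. The spread between the 3 lines in the change from parental to resistant is thus the only replicate error. Drug, EGFR mutation and line cannot be told apart for H1975.

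Type I interferons are secreted when a cell detects foreign or misplaced nucleic acid. They bind the IFNAR1 and IFNAR2 receptor chains and act through the kinases JAK1 and TYK2 on a transcription factor complex (ISGF3), of which STAT2 and IRF9 are subunits and which binds the interferon-stimulated response element in the promoters of target genes. The products of these genes sense viral RNA, block translation, degrade RNA or trap virus particles, and some of them (STAT2, IRF7, IRF9, USP18) act back on the pathway; many are also expressed at a basal level in cancer cells without added interferon.

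The response element was read in the promoters of the members. The choice of genes did not use sequence, but it took genes known to be induced by interferon, which acts through this element. Its share among the members is therefore not independent of that choice. The RefSeq table (GRCh38.p14) holds windows of 250 bases before to 50 bases after the transcription start for 32 of the 39 genes; IFIT2, IFITM2, IRF7, OAS2, OASL, TRIM22 and USP18 had no entry in it. The core of the element, GAAA followed by any 2 bases and a second GAAA, was searched on both strands and was present in a window of 21 of the 32 genes (65.6%), against 1195 of 27305 genes in the whole table (4.38%). The shorter STAT-type motif TTCNNNGAA, which reads the same on both strands, was present in 12 of the 32 genes (37.5%), against 9.38% of all genes. A match describes letters in a window and is not evidence of binding. Below are the 170 bases before the start of 7 of the 21 members with the core, 5′ to 3′ on the strand of the gene. The core or its complement (TTTC, any 2 bases, TTTC) is in capitals, with overlapping matches in 1 run. The 7 windows lie at chr1:1013327-1013496 (plus strand), chr10:89392453-89392622 (plus), chr1:27672193-27672362 (minus), chr12:112938304-112938473 (plus), chr1:78620278-78620447 (plus), chr14:94110566-94110735 (plus) and chr19:17405631-17405800 (minus).
ISG15: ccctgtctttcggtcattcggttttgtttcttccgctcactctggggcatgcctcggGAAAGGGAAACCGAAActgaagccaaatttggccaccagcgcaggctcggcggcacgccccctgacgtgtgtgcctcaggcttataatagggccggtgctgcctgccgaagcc
IFIT1: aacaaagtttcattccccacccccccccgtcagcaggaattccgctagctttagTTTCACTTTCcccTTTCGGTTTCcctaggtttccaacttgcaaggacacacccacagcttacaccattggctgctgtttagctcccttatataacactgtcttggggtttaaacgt
IFI6: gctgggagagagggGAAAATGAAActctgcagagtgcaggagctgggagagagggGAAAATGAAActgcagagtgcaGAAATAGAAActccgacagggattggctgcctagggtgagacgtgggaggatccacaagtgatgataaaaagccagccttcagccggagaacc
OAS3: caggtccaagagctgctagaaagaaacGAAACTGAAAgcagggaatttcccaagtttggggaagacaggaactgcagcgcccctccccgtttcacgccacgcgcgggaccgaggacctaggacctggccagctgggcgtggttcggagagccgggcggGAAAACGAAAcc
IFI44L: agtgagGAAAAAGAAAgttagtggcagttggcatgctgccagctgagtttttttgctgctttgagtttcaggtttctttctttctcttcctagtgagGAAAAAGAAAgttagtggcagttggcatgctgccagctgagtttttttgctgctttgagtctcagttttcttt
IFI27: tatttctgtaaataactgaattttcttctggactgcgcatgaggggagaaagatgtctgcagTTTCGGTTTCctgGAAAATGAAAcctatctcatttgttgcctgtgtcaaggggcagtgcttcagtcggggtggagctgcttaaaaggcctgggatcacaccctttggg
BST2: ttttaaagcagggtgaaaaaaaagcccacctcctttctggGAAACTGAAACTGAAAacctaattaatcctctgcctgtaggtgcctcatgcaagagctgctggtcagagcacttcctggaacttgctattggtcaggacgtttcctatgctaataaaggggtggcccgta
IFI6 holds 3 matches in these bases and each of the other 6 genes holds 2. The pair in ISG15 and the pair in BST2 overlap, so that 3 GAAA units stand in a row, whereas those of OAS3 and IFI44L lie far apart. The matches of IFI44L have the same letters in both copies, as do 2 of the 3 of IFI6. The same core stood in promoters of genes that were lower in resistant HCC827 cells (IFI27, BST2, IFI44L) and in promoters of genes that were higher in resistant H1975 cells (IFI6, OAS3, IFI44L), as given below. The 11 genes without it in a window were CMPK2, DDX58, HERC6, IFI35, IRF1, IRF9, OAS1, SAMD9L, SP110, STAT2 and XAF1. Of these, OAS1 and XAF1 were also lower in resistant HCC827 cells (log2 ratios −2.655 and −1.495) and higher in resistant H1975 cells (1.614 and 1.807).

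The libraries held 21222102 to 29366085 exon reads, of which 90.8% to 91.7% mapped uniquely. Levels are given as CPM, exon reads scaled to a common library size with TMM factors (0.911 to 1.11), and a gene without reads could still have had 0.0983 to 0.145 CPM, the level of 3 counts; intervals and floors cover counting error only. In 8 of the 39 genes under 80% of exon reads were unique to the gene, which marks an overlap with another annotated gene: IFIT1, IFIT2 and IFIT3 with LIPA, IRF9 with AL136295.5, XAF1 with PRAL, IRF1 with AC116366.3, TRIM22 with TRIM5 and OR56B1, and IFITM1 with IFITM2. CMPK2 and RSAD2 also overlap each other. The library kit kept strand, but whether the counting used it is not given in the sources used here, so the values of these genes are uncertain. Of 6 epithelial markers, EPCAM and CDH1 were near 0 in resistant H1975 cells (0.459 and 0.131 CPM), while the keratins KRT8, KRT18, KRT7 and KRT19 had 839.4, 507, 310.3 and 74.7 CPM there. Leukocyte markers summed to 55.6 to 187 CPM, most of it CD68, with CD14 at no more than 11.5 CPM, and the plasmacytoid dendritic cell markers to 0.0727 to 21.5 CPM, with TCF4 the most abundant. In bulk RNA, fewer expressing cells and less RNA per cell cannot be told apart.

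The question asked first was how much of the interferon signature each line carried. The 39 genes took 0.0700% of exon reads in resistant HCC827 cells and 0.110% in parental HCC827 cells. In PC9 they took 0.0211% in resistant and 0.0165% in parental cells, and in H1975 0.284% in resistant and 0.165% in parental cells. PC9 was thus lowest and H1975 highest in both states, and the order of the lines was the same in resistant and parental cells. The median member had 13.7 CPM in resistant and 19.6 CPM in parental HCC827 cells, 4.50 and 2.27 CPM in resistant and parental PC9 cells, and 50.3 and 27.6 CPM in resistant and parental H1975 cells. At least 10 CPM was reached by 21 members in resistant and 29 in parental HCC827 cells, by 7 and 6 in resistant and parental PC9 cells, and by 37 and 32 in resistant and parental H1975 cells. Of all genes, 44.4% to 45.0% reached 10 CPM in each library, so the libraries were alike in this over the whole table.

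**Figure D1:**
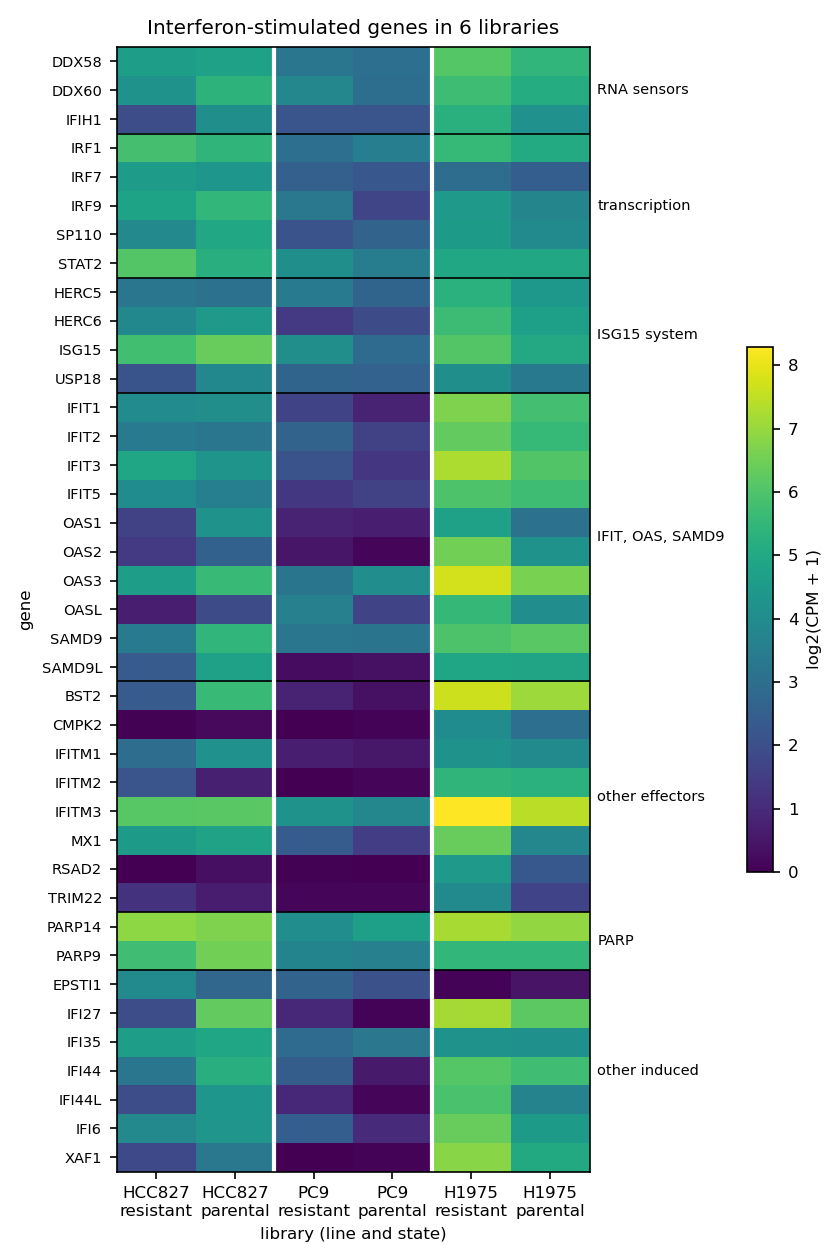
Level of each of the 39 interferon-stimulated genes (rows, grouped by role) in the 6 libraries (columns), as log2(CPM + 1), with the resistant library left of the parental one in each line. The PC9 columns are dark for most genes, with 7 members at 10 CPM or more in resistant and 6 in parental cells, and the H1975 columns are bright, with 37 in resistant and 32 in parental cells; EPSTI1 runs the other way.

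Length-corrected levels show which members made up the signature. In H1975, IFITM3 and BST2, membrane proteins that block virus entry and hold budding particles at the cell surface, were the most abundant members, at 702.1 and 601.8 TPM in resistant cells and 417.5 and 423.2 TPM in parental cells. IFI27, a small mitochondrial and membrane protein, had 297.4 TPM in resistant and 162.4 TPM in parental H1975 cells. ISG15, a ubiquitin-like modifier, led in both HCC827 states, with 135.4 TPM in resistant and 216.9 TPM in parental cells. It also led in resistant PC9 cells, at 43.2 TPM, where IFITM3 was next at 33.7 TPM; in parental PC9 cells IFITM3 had 25.4 TPM, IFI35 18.0 TPM and ISG15 17.5 TPM. PC9 therefore held the modifier and the entry inhibitor at moderate levels and little of most other members. In PC9, 30 of the 39 genes stayed under 10 CPM in both libraries, and 12 stayed under 1 CPM in both: OAS1, OAS2, IFI27, IFI44L, IFITM1, IFITM2, BST2, XAF1, RSAD2, CMPK2, SAMD9L and TRIM22.

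Between parental libraries there is no replicate and no test. Over all 39 genes, 35 were at least 2-fold higher in H1975 than in PC9, 1 (EPSTI1) was at least 2-fold lower and 3 (IFI35, IRF7 and USP18) were closer, with a median log2 ratio of 2.43. Against PC9, HCC827 had 32 of the 39 at least 2-fold higher and 0 lower, with a median of 2.29; the 7 others were OASL, IFITM2, HERC5, RSAD2, CMPK2, EPSTI1 and TRIM22. Between H1975 and HCC827, 14 of the 39 were at least 2-fold higher in H1975 and 6 lower, with a median of 0.20. Among genes that reached 10 CPM in either library, 31 of 32 members were at least 2-fold higher in H1975 than in PC9 (17.1% of all such genes), and 29 of 29 in HCC827 than in PC9 (14.7%). Of these, 26 of the 32 and 23 of the 29 reached 10 CPM only in the line where they were higher, so both counts follow in part from that minimum. Between H1975 and HCC827, 11 of 35 were higher (17.2%) and 5 lower (17.5%) in H1975. PC9 had the lowest parental level in 36 of the 37 members that passed the filter on low counts, against 33.6% of genes. The highest parental level was that of H1975 in 21 members (35.8% of genes) and that of HCC827 in 16 (32.6%). Among resistant libraries PC9 was lowest in 32 of the 37 (34.5%) and H1975 highest in 30 (35.1%). Both H1975 libraries lay above both PC9 libraries in 35 of the 37 (39.1%), both HCC827 libraries above both PC9 libraries in 33 (34.2%), and both H1975 libraries above both HCC827 libraries in 21 (33.1%). EPSTI1 was the member not lowest in parental PC9, a gene with 5.67 CPM in parental HCC827, 3.13 CPM in parental PC9 and 0.339 CPM in parental H1975 cells.

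Because a line has 2 libraries, the difference between lines could be tested with the state as a block. These 2 libraries are a parent and its own resistant subline. The error of this test is therefore how far the change of state differs between lines, not a spread between repeat cultures of a line. CMPK2 and RSAD2 did not pass the filter on low counts, so 37 members entered edgeR's quasi-likelihood test on 13541 genes. An adjusted p under 0.05 was reached by 25 of the 37 members, against 27.7% of all genes tested. DESeq2 called 36 of them (51.8% of genes) and limma-voom 28 (35.4%). Pairwise contrasts of the lines were added after the data were seen. In H1975 against PC9, 23 members were higher (10.9% of genes) and 1, EPSTI1, was lower (10.6%), and the median log2 fold change was 3.79, against 0.04 over all genes. In HCC827 against PC9, 16 were higher (6.69%) and 0 lower (5.78%), with a median of 2.76. At an unadjusted p under 0.05 edgeR had 30 members higher and 0 lower, against 2563 and 2244 of all genes. By adjusted p, DESeq2 had 31 members higher, against 15.8% of genes, and 0 lower, against 14.9%. In H1975 against HCC827 edgeR had 7 higher (7.63%) and 2 lower (7.53%), with a median of 1.19. The calls depended on the lines kept, for the members and for all genes. Without the PC9 libraries the test of the lines called 1 of the members and 351 of all genes. Without H1975 it called 8 members and 887 genes, and without HCC827 it called 37 members and 5695 genes.

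IFIT3, which scaffolds the RNA-binding IFIT complex, had 151.9 CPM in resistant and 64.6 CPM in parental H1975 cells, 28.2 and 18.6 CPM in resistant and parental HCC827 cells, and 3.34 and 1.49 CPM in resistant and parental PC9 cells. The 3 lines did not overlap. Its log2 fold change was 5.46 ± 0.31 (SE; edgeR adjusted p = 0.0076) for H1975 against PC9, 2.11 ± 0.26 (adjusted p = 0.0235) for H1975 against HCC827 and 3.35 ± 0.29 (adjusted p = 0.0161) for HCC827 against PC9. IFIT1, IFIT5 and IFITM3 were likewise called in all 3 contrasts in that order of lines. IFITM3 had 312.4 and 173.5 CPM in resistant and parental H1975 cells, 70.1 and 71.7 CPM in resistant and parental HCC827 cells, and 18.1 and 13.4 CPM in resistant and parental PC9 cells. Its log2 fold change was 3.91 ± 0.31 for H1975 against PC9 (edgeR adjusted p = 0.0107). IFIT5, all of whose reads were unique to the gene, had the same order of lines as its neighbours IFIT1 and IFIT3, whose reads mostly overlap LIPA.

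IRF7, the transcription factor that amplifies interferon production, and EPSTI1, an interferon-induced stromal interaction protein, were the members lower in H1975 than in HCC827 by that test. IRF7 had 6.85 and 4.54 CPM in resistant and parental H1975 cells and 22.9 and 19.3 CPM in resistant and parental HCC827 cells, a log2 fold change of −1.91 ± 0.35 (edgeR adjusted p = 0.0357). EPSTI1 had 0.0656 and 0.339 CPM in resistant and parental H1975 cells, 14.6 and 5.67 CPM in resistant and parental HCC827 cells, and 5.21 and 3.13 CPM in resistant and parental PC9 cells. The H1975 libraries lay below all 4 others, with a log2 fold change of −4.29 ± 1.03 against PC9 (edgeR adjusted p = 0.0473). XAF1, a partner of the apoptosis inhibitor XIAP, had 112.7 and 31.5 CPM in resistant and parental H1975 cells, 2.58 and 9.09 CPM in resistant and parental HCC827 cells, and 0 reads and 1 read (0.0482 CPM) in resistant and parental PC9 cells. It was called higher in H1975 and in HCC827 than in PC9 (edgeR adjusted p = 0.0192 and 0.0462), and 25.5% of its reads were unique.

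The 12 tested members that the test of the lines did not call were IFI44L, IFI44, IFIH1, SP110, DDX60, SAMD9, OAS1, OASL, IRF9, IFI27, MX1 and USP18, with adjusted p from 0.0505 for MX1 to 0.357 for USP18 (edgeR). Among them, IFI27 and OAS1 differed several fold between the 2 states of HCC827.

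**Figure D2:**
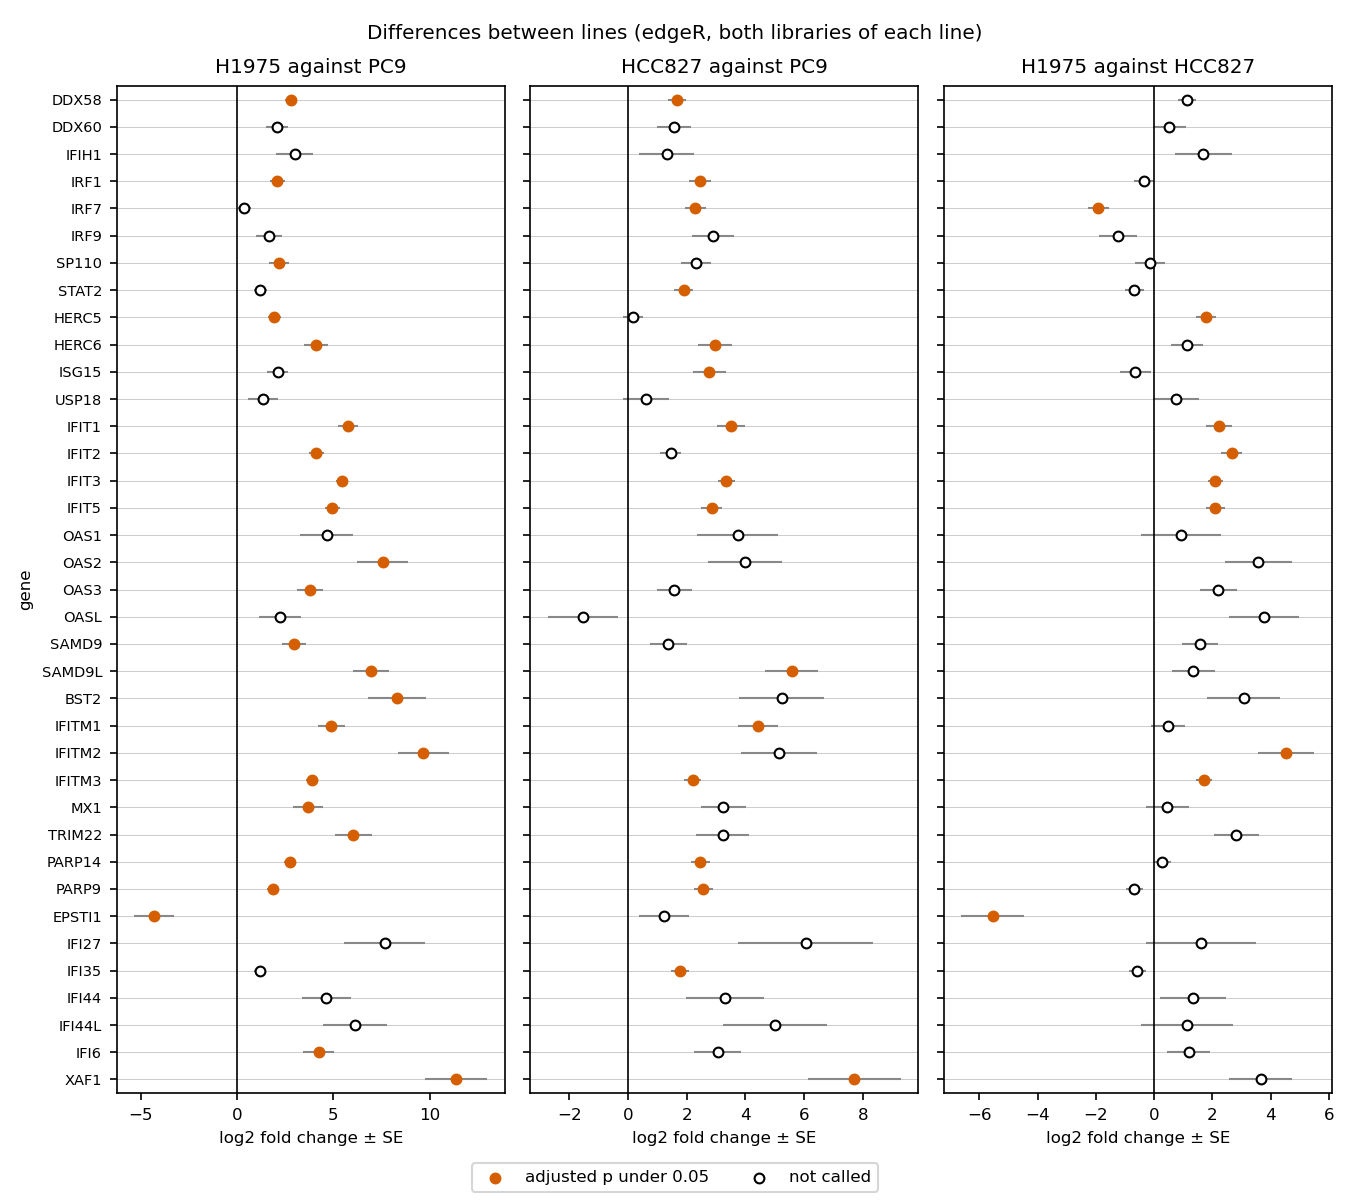
Log2 fold change between lines of the 37 members tested (rows, grouped by role), in 3 panels: H1975 against PC9, HCC827 against PC9 and H1975 against HCC827, from edgeR over both libraries of each line with the state as a block. Bars are standard errors and filled points have an adjusted p under 0.05. In the first panel 23 members are filled to the right of 0 and 1, EPSTI1, to the left.

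The next question was how resistant cells of each line differed from their parents. The lines went different ways, and these ratios have 1 library per state and no test. In H1975, 34 of the 37 members that reached 10 CPM in either library were higher in the resistant cells, by any amount, against 55.7% of genes. At least 2-fold higher were 14, against 1.75% of genes, and 0 were at least 2-fold lower, against 3.22%. The median log2 ratio of the 37 was 0.85, against 0.05 over all genes. Of the 14, OAS1, RSAD2 and TRIM22 reached 10 CPM in the resistant library alone, so that count follows in part from the minimum. In HCC827, 8 of 31 were higher by any amount (49.3% of genes), with a median of −0.61, against −0.01. EPSTI1 alone was at least 2-fold higher (1 gene, background 10.5%) and 13 were lower by 2-fold or more (7.66%). Of these 13, only OAS3, DDX60 and SP110 reached 10 CPM in both libraries. The others reached it in the parental library alone, and EPSTI1 in the resistant library alone, so both counts follow in part from that minimum. The mitochondrial share of reads also differed in this pair, at 6.62% in resistant and 3.32% in parental HCC827 cells, against 4.67% to 6.86% in the PC9 and H1975 libraries; its part in the result was not tested. In PC9 only 9 members reached 10 CPM. Of these 6 were higher by any amount (48% of genes), with a median of 0.41, against −0.02. ISG15 and OASL, 2 of the 9, were at least 2-fold higher (2.41%) and 0 were lower by as much (1.7%). Both ISG15 and OASL reached 10 CPM in the resistant library alone, so this count too follows in part from the minimum. Over all 39 genes, low ones included, 14 were at least 2-fold higher and 0 lower in resistant H1975 cells, 2 higher and 16 lower in resistant HCC827 cells, and 6 higher and 0 lower in resistant PC9 cells; the medians were 0.78, −0.59 and 0.25.

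**Figure D3:**
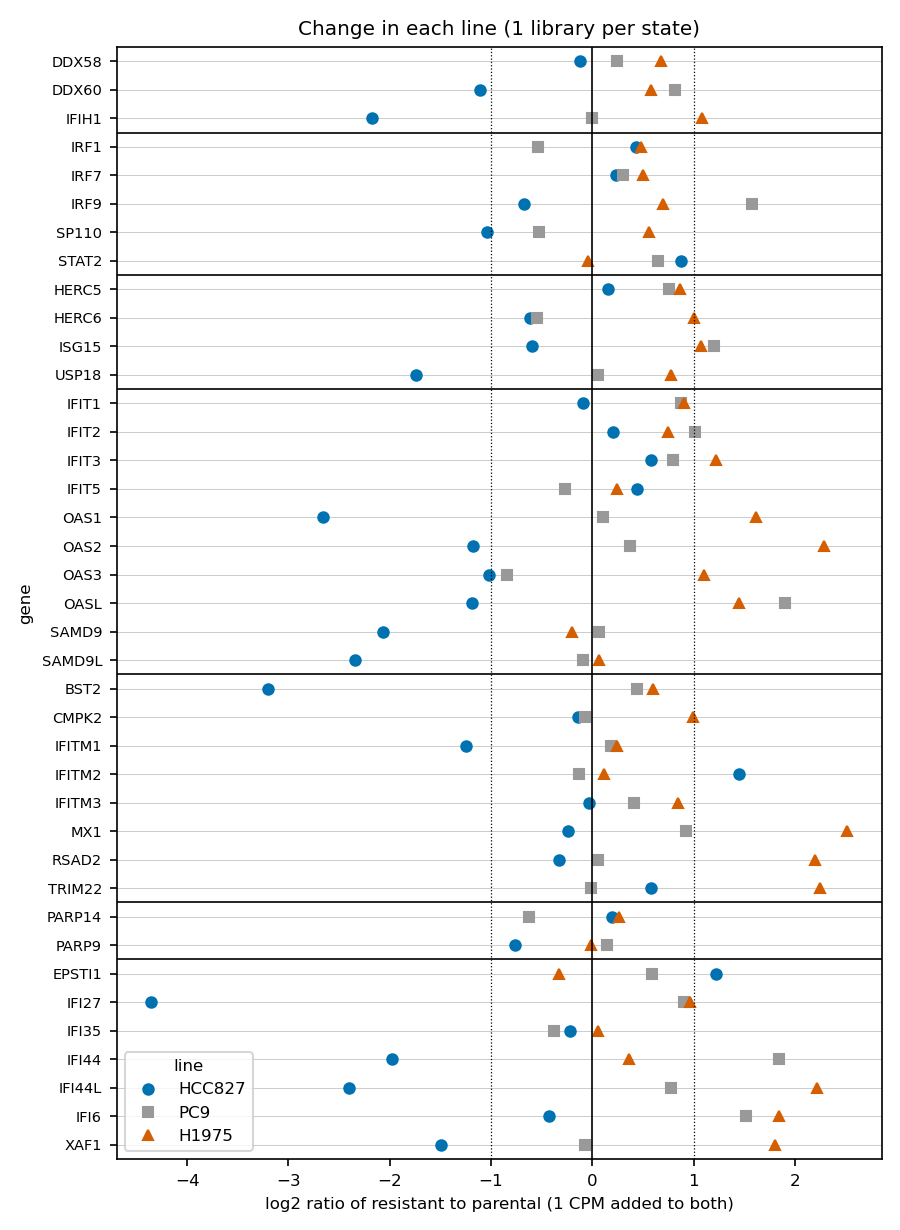
Log2 ratio of resistant to parental CPM (1 CPM added to both) for each of the 39 genes (rows, grouped by role) in HCC827 (circles), PC9 (squares) and H1975 (triangles), with dotted lines at 2-fold. No triangle or square lies beyond 2-fold on the lower side, whereas 16 circles do, down to IFI27 at −4.35.

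In resistant H1975 cells 5 of the 10 IFIT, OAS and SAMD9 genes, 3 of the 8 other antiviral effectors and 3 of the 6 other induced genes measured were at least 2-fold higher. MX1, a dynamin-like GTPase that blocks virus replication, had 81.1 CPM in resistant and 13.4 CPM in parental H1975 cells, 6.08-fold higher with a 95% counting interval of 5.40 to 6.86. In the other lines it differed less, with 22.1 and 26.2 CPM in resistant and parental HCC827 cells and 4.38 and 1.83 CPM in resistant and parental PC9 cells. RSAD2 (viperin), which makes a chain-terminating nucleotide, had 21.5 CPM in resistant and 3.90 CPM in parental H1975 cells, and 0 to 7 reads in each of the other 4 libraries. Its neighbour CMPK2, a nucleotide kinase transcribed from the other strand, had 15.3 CPM in resistant and 7.16 CPM in parental H1975 cells. TRIM22, a ubiquitin ligase, had 14.2 and 2.20 CPM in resistant and parental H1975 cells, with 35.2% of its reads unique. BST2 and the IFITM genes, the abundant membrane members, had smaller ratios in H1975, with log2 values of 0.60 for BST2, 0.85 for IFITM3, 0.24 for IFITM1 and 0.12 for IFITM2.

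In HCC827 the membrane members differed from each other. BST2 had 4.19 CPM in resistant and 46.8 CPM in parental HCC827 cells, 11.2-fold lower with a 95% counting interval of 9.20 to 13.7. IFITM1 had 6.81 CPM in resistant and 17.5 CPM in parental cells, whereas IFITM3 had 70.1 and 71.7 CPM. IFITM2 went the other way at a low level, with 3.52 CPM in resistant and 0.654 CPM in parental cells (log2 ratio 1.45). The 3 IFITM genes lie together on chromosome 11 (hg38), from 307631 for the start of IFITM2 to 327537 for the end of IFITM3. As annotated, IFITM1 lies within IFITM2, and 38.8% of IFITM1 reads were unique to it. The ratios of the 3 genes in HCC827 differed in sign or size.

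The oligoadenylate synthetases OAS1, OAS2 and OAS3 make the second messenger that switches on RNase L, and lie in a row on hg38 chromosome 12 from 112906777 to 113011723; OASL, an inactive relative, lies apart at 121019111 to 121039242. OAS1 had 2.06 and 18.3 CPM in resistant and parental HCC827 cells, 0.751 and 0.627 CPM in resistant and parental PC9 cells, and 25.8 and 7.76 CPM in resistant and parental H1975 cells. Resistant HCC827 cells were thus 8.88-fold lower than their parent (95% counting interval 6.71 to 12.0) and resistant H1975 cells 3.33-fold higher (2.83 to 3.93). OAS2 had 1.65 and 4.98 CPM in resistant and parental HCC827 cells, 0.417 and 0.0964 CPM in PC9, and 91.7 and 18.0 CPM in H1975, with the same opposite signs. OAS3, the most abundant of them in H1975, had 23.3 and 48.3 CPM in resistant and parental HCC827 cells, 8.26 and 15.6 CPM in PC9 cells and 210.9 and 97.4 CPM in H1975 cells. It was lower in both gefitinib-selected lines and higher in the osimertinib-selected one. OASL was higher in resistant cells of 2 lines, with 11.2 and 2.27 CPM in resistant and parental PC9 cells and 44.8 and 15.8 CPM in resistant and parental H1975 cells; in HCC827 it had 0.636 CPM in resistant and 2.73 CPM in parental cells.

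The IFIT genes, which bind viral RNA ends and curb translation, differed from the OAS genes in HCC827. In resistant HCC827 cells IFIT1 had 14.96 CPM, IFIT2 10.0 CPM, IFIT3 28.2 CPM and IFIT5 15.3 CPM. In parental HCC827 cells they had 15.96, 8.54, 18.6 and 11.02 CPM. No IFIT gene was 2-fold apart in HCC827, while all 4 OAS genes were at least 2-fold lower. In H1975 the IFIT log2 ratios were 0.90, 0.75, 1.22 and 0.25, smaller than those of OAS1 and OAS2. SAMD9 and SAMD9L, adjacent genes on chromosome 7 whose proteins restrict poxviruses and slow translation, had log2 ratios of −2.07 and −2.35 in HCC827 and between −0.20 and 0.07 in PC9 and H1975. SAMD9 had 9.46 and 42.9 CPM and SAMD9L 4.23 and 25.6 CPM in resistant and parental HCC827 cells.

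Among the sensors of cytoplasmic RNA, IFIH1 (MDA5), the receptor for long double-stranded RNA, had 2.92 and 16.7 CPM in resistant and parental HCC827 cells and 37.4 and 17.2 CPM in resistant and parental H1975 cells. In PC9 it had 3.55 and 3.57 CPM in resistant and parental cells. DDX58 (RIG-I), the receptor for RNA with a 5′ triphosphate, had 23.6 and 25.7 CPM in resistant and parental HCC827 cells, and log2 ratios of 0.25 in PC9 and 0.67 in H1975. DDX60 is a helicase linked to RIG-I signalling, and its log2 ratio was −1.10 for HCC827, 0.82 for PC9 and 0.58 for H1975. The 2 main receptors thus differed in HCC827, where IFIH1 was 5.71-fold lower and DDX58 1.09-fold lower in resistant cells.

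Among the transcription factors, STAT2 had 66.0 and 35.5 CPM in resistant and parental HCC827 cells, 16.6 and 10.2 CPM in resistant and parental PC9 cells, and 29.5 and 30.3 CPM in resistant and parental H1975 cells. STAT2 was therefore higher in resistant HCC827 cells, in which most of the members were lower, and at a log2 ratio of −0.04 in H1975, in which most were higher. IRF9, the DNA-binding subunit of the same complex, had 27.3 and 44.1 CPM in resistant and parental HCC827 cells, 9.01 and 2.36 CPM in PC9 and 21.0 and 12.5 CPM in H1975, but 2.29% of its reads were unique to it; its log2 ratio in PC9 was 1.57. The log2 ratio of IRF1, which is also driven by interferon gamma, was 0.43 for HCC827, −0.54 for PC9 and 0.48 for H1975, and that of IRF7 was 0.23, 0.30 and 0.50. SP110, a nuclear body protein, had −1.04, −0.53 and 0.56. No transcription factor was at least 2-fold higher in the resistant cells of HCC827 or H1975, and 1 of 5, SP110, was at least 2-fold lower in HCC827.

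ISG15 and its enzymes also split. ISG15 had 53.7 and 81.3 CPM in resistant and parental HCC827 cells, 16.2 and 6.46 CPM in resistant and parental PC9 cells, and 66.3 and 30.9 CPM in resistant and parental H1975 cells. The log2 ratio of HERC5, the ligase that attaches ISG15, was 0.16 for HCC827, 0.76 for PC9 and 0.86 for H1975. For HERC6, its neighbour on chromosome 4, the same ratios were −0.61, −0.55 and 1.01. USP18, which removes ISG15 and damps the interferon receptor, had 3.40 and 13.7 CPM in resistant and parental HCC827 cells and 16.7 and 9.32 CPM in resistant and parental H1975 cells. PARP9 and PARP14, members of the ADP-ribosyltransferase family, had log2 ratios within 2-fold in all 3 lines (−0.76 to 0.26).

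Of the remaining induced genes, IFI27 had 2.88 CPM in resistant and 78.3 CPM in parental HCC827 cells, 27.2-fold lower with a 95% counting interval of 21.7 to 34.6, and 142.9 and 72.9 CPM in resistant and parental H1975 cells. In PC9 it had 0.959 CPM in resistant cells and 1 read in parental cells. IFI44L had 2.88 and 19.6 CPM in resistant and parental HCC827 cells and 59.6 and 12.0 CPM in resistant and parental H1975 cells. Its neighbour IFI44 had 8.45 and 36.2 CPM in resistant and parental HCC827 cells, 4.50 and 0.530 CPM in resistant and parental PC9 cells, and 68.0 and 52.8 CPM in resistant and parental H1975 cells. IFI6, which protects mitochondria and the endoplasmic reticulum in infected cells, had 4.63 and 0.964 CPM in resistant and parental PC9 cells and 81.8 and 22.1 CPM in resistant and parental H1975 cells, and a log2 ratio of −0.42 in HCC827. IFI35 stayed within 2-fold in all 3 lines, and EPSTI1 was the member of this group that was higher in resistant HCC827 cells (log2 ratio 1.22).

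The members were also read across the lines. A group of 17 of the 37 tested members was higher in resistant PC9 and H1975 cells and lower in resistant HCC827 cells, against 11.7% of genes. Higher in all 3 resistant libraries were 4 (14.3% of genes), namely IFIT2, IFIT3, HERC5 and IRF7, and lower in all 3 were 0 (13.5%). OAS1, OAS2, OAS3, OASL, IFI44L, XAF1 and IFIH1, 7 of the 37, were at least 2-fold lower in resistant HCC827 cells and at least 2-fold higher in resistant H1975 cells, at any level, against 0.258% of genes. They are 50% of the 14 members at least 2-fold higher in H1975 and 43.8% of the 16 at least 2-fold lower in HCC827. Relative log expression factors, library size, TPM or unique reads turned the sign of 2 ratios in PC9 (IFIH1 and TRIM22) and 2 in H1975 (IFI35 and SAMD9L), none of them over 0.07 in size, and of 0 in HCC827.

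With the lines as replicates, the comparison of resistant with parental libraries called 0 of the 37 members and 0% of genes with edgeR, limma-voom called 0 members as well, and DESeq2 called 0 members and 0.428% of genes. At an unadjusted p under 0.05 edgeR had 502 genes and 2 members. They were IFIT3, with a log2 fold change of 0.99 ± 0.22, and IFIT2, with 0.76 ± 0.29 (SE, edgeR adjusted p = 0.903 for both, higher in 3 of 3 lines). DESeq2 had 4 members and 923 genes at that level, and limma-voom 4 members and 763 genes. The median over the 37 members was 0.27, against 0.00118 over all genes. The difference of the change between the osimertinib-selected line and the gefitinib-selected lines also called 0 members and 0% of genes with edgeR, and 0 members with DESeq2 (0.532% of genes) and limma-voom. It has 1 residual degree of freedom. At an unadjusted p under 0.05 edgeR had 434 genes and 4 members: OAS3 at 2.10 ± 0.41, XAF1 at 3.73 ± 0.73, HERC6 at 1.76 ± 0.59 and EPSTI1 at −3.34 ± 1.18 (adjusted p = 1 for each). DESeq2 had 5 members and 495 genes at that level, and limma-voom 12 members and 494 genes. Each of these members had the larger log2 change in the osimertinib-selected line, as had 100 and 121 of those genes. The contrast between H1975 and the gefitinib-selected lines in the ratios above thus did not pass this test.

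Intron reads, counted separately by the authors and not used for the values above, come mostly from unspliced RNA. In H1975, 35 members had at least 10 intron reads in either library and a read in the other. Of them, 30 were higher in the resistant cells, with a median log2 ratio of 0.72, and 30 lay on the same side as their exon reads. TRIM22, with 26 and 0 intron reads in resistant and parental H1975 cells, was left out by this rule. In HCC827, 22 of 30 were lower in the resistant cells, with a median of −0.50, and 21 lay on the same side. In PC9, 8 of 18 were higher and 10 lower. Intron ratios used the library scaling of the exon reads, and the same shares over all genes were not taken. A shift in intron reads over a whole library was not tested. MX1 had 253 intron reads in resistant and 43 in parental H1975 cells, 4.55-fold higher, and IFI44L 654 and 140, close to their exon ratios. OAS1 introns were 4.38-fold lower in resistant HCC827 cells, with 14 reads in resistant and 63 in parental cells.

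Some members parted from that pattern. IFI27 had 112 intron reads in resistant and 209 in parental HCC827 cells, 1.81-fold lower with a 95% counting interval of 1.44 to 2.30, whereas its exon level was 27.2-fold lower. RSAD2 had 86 intron reads in each state of H1975, although its exon level was 5.52-fold higher in resistant cells; the gene overlaps CMPK2. DDX58 had 218 intron reads in resistant and 110 in parental HCC827 cells, 2.04-fold higher (1.61 to 2.59), with exon levels of 23.6 and 25.7 CPM. OAS3 introns in HCC827 had 41 and 37 reads in resistant and parental cells, with exon levels 2.08-fold lower in resistant cells. STAT2 was higher in resistant HCC827 cells by both measures, with 1075 intron reads in resistant and 633 in parental cells.

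**Figure D4:**
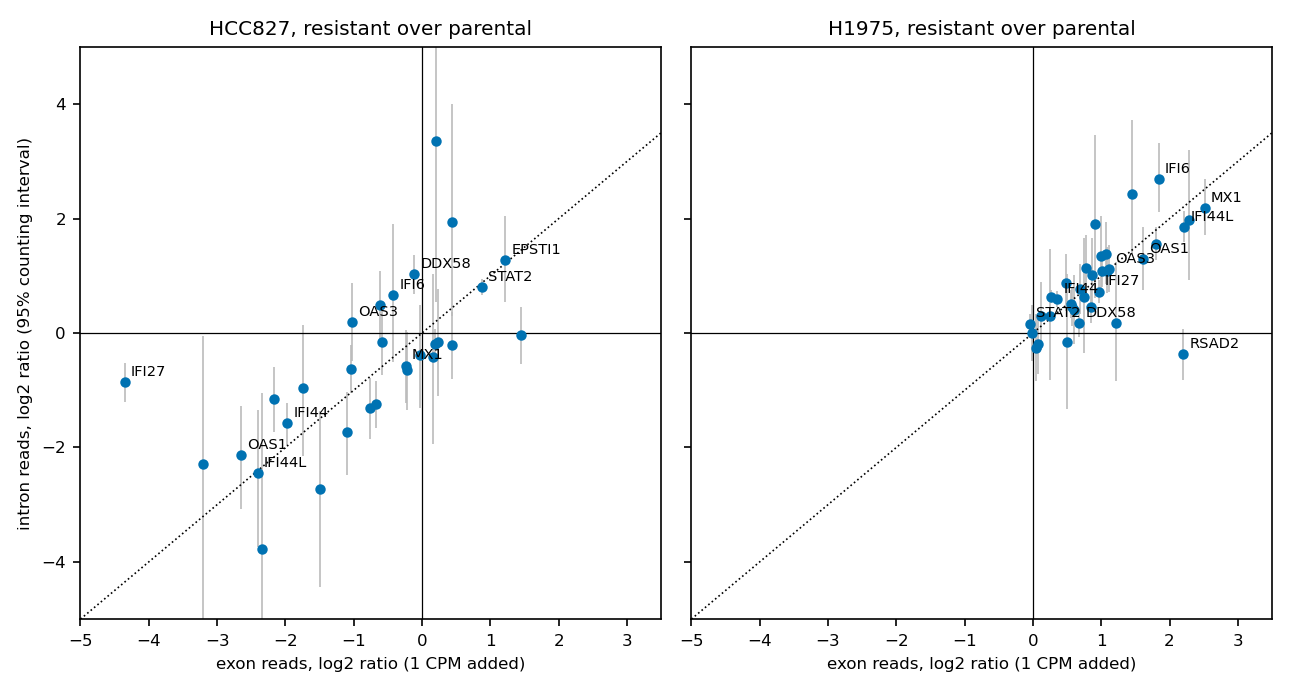
Log2 ratio of resistant to parental intron reads (vertical, with 95% counting intervals, cut at the axis limits) against that of exon reads (horizontal, 1 CPM added). Members had at least 10 intron reads in either library and a read in the other, in HCC827 (left, 30 members) and H1975 (right, 35 members). The dotted line marks equal ratios. IFI27 in HCC827 (exon −4.35, intron −0.86) and RSAD2 in H1975 (exon 2.20, intron −0.37) lie off that line.

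Another 137 genes, of the pathway or markers of cell types, were listed by role. Of 21 interferon ligand genes 15 had 0 reads in all 6 libraries. IFNB1 had 2 reads in resistant H1975 cells, 1 read in each of the parental HCC827 and PC9 libraries and 0 in the others. IFNA8 and IFNA13 each had 1 read in resistant HCC827 and 1 in resistant PC9 cells, IFNA21 had 1 read in parental PC9 cells, and IFNL1, a type III interferon, had 5 and 2 reads in resistant and parental H1975 cells and 1 in resistant PC9 cells. No IFNA13 read was unique to that gene. IFNE, an epithelial type I interferon, was the most abundant at 0.328 to 1.85 CPM. Apart from IFNE, and IFNL1 in resistant H1975 cells, ligand reads lay under the floor of 3 counts in each library. No member of any list was called by edgeR between resistant and parental libraries or between the drugs.

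The receptor and JAK-STAT list had 4 of 11 genes called between lines by edgeR, against 27.7% of all genes. JAK1 had 705.7 and 222.9 CPM in resistant and parental HCC827 cells (log2 ratio 1.66), and log2 ratios of 0.11 in PC9 and 0.23 in H1975. Of the nucleic acid sensing list, 4 of 12 tested genes were called between lines (27.7% of all genes), and 4 of 10 measured were at least 2-fold lower in resistant HCC827 cells (7.66% of all genes). They were TMEM173 (STING), with 9.80 and 34.7 CPM in resistant and parental cells, DHX58, with 2.80 and 10.9 CPM, MYD88, with 22.8 and 60.3 CPM, and IRF3, with 47.0 and 109.3 CPM. In resistant H1975 cells 0 of the 11 that reached 10 CPM were 2-fold apart. TLR3, below that minimum and named after its values were seen, had 6.36 and 1.02 CPM in resistant and parental H1975 cells. In resistant and parental cells it had 0.0374 and 2.91 CPM for HCC827, and 1.17 and 2.65 CPM for PC9. Of 31 other interferon-stimulated genes outside the members, 24 were measured in HCC827, 20 in PC9 and 26 in H1975. The median log2 ratio of those measured was −0.49 for HCC827, 0.09 for PC9 and 0.44 for H1975, and 13 of the 31 were called between lines (27.7% of all genes). UBE2L6, the ISG15-conjugating enzyme, had log2 ratios of −1.14, 1.31 and 0.72, and MX2 had 27.1 and 7.54 CPM in resistant and parental H1975 cells.

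Of 12 measured targets of interferon gamma and IRF1, 3 were at least 2-fold higher (10.5% of all genes) and 0 lower (7.66%) in resistant HCC827 cells, with a median log2 ratio of −0.01. GBP1, a guanylate-binding protein, had 51.8 and 24.4 CPM in resistant and parental HCC827 cells and 62.1 and 27.7 CPM in resistant and parental H1975 cells, and GBP2 had 106.9 and 49.4 CPM in HCC827. In this list 12 of 14 tested genes were called between lines (27.7% of all genes), with 11 higher in H1975 than in PC9 (10.9%) and 11 higher in HCC827 than in PC9 (6.69%). CIITA, the MHC class II activator, had 4.29 CPM in resistant and 13.5 CPM in parental H1975 cells. A list of 10 feedback inhibitors also held antiviral effectors such as SAMHD1. Of these 10 genes 6 were called between lines (27.7% of all genes), in both directions. The epithelial marker list was also lower in resistant HCC827 cells, where 5 of 6 genes were at least 2-fold lower and the list summed to 5208 CPM, against 13332 CPM in parental cells. In H1975 3 of 6 were lower, with sums of 1732 CPM in resistant and 2760 CPM in parental cells, while the interferon members were higher there; its part in either result was not tested. Of 6 fibroblast marker genes only 2, COL1A1 and COL1A2, reached 10 CPM in a library. They had 125.7 and 87.3 CPM in resistant and 59.3 and 28.2 CPM in parental H1975 cells. The other fibroblast markers had at most 4.9 CPM in resistant and 4.7 CPM in parental H1975 cells. The part of these genes was not tested.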

How the data were processed

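Messenger RNA libraries of 3 resistant and 3 parental lines were grouped by the labels, with the cell line as pair and replicate. For each library the authors deposited raw whole-number counts (total exon, unique exon and intron reads, per the file headers) and TPM values, which per the file headers correct for exon length and were used for levels between genes. Trimmomatic, Bowtie2 and hg38 are named in the submitters' processing notes, without a role or version. Of counting tool, annotation release and use of strand, none is given in the sources used here. Positions are those of the files (hg38).

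The members and lists were chosen with earlier results of these data known. From the other lists, genes reaching 10 CPM in a library were named, up to 4 per list by the largest log2 ratio in any line, together with each interferon ligand with a read. A gene that the rule also took is not reported here. Total exon reads were tested with the quasi-likelihood test of edgeR 4.0.16 (R 4.3.3), TMM scaling and filterByExpr (minimum count 10, minimum total 15), two-sided, adjusted by Benjamini-Hochberg over 13541 genes, threshold 0.05. The state was tested with the cell line as a block (2 residual degrees of freedom), the lines with the state as a block, and the difference between drugs by an interaction (1 residual degree of freedom). The procedure was checked on simulated counts. Within lines, the log2 ratio of CPM with 1 CPM added was read at 2-fold among genes that reached 10 CPM in either library. Counting intervals are exact (Clopper-Pearson, 95%), and the floor is 3 counts. Introns needed at least 10 reads in either library and a read in the other. Alternatives were DESeq2 1.42.0, limma-voom (limma 3.58.1), other scalings, filters and added CPM, unique and intron reads, and leaving out each line.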

Additional observations from a re-analysis of the deposited data

Results flagged for a closer look

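OAS3 was lower in the resistant cells of HCC827 and PC9 and higher in those of H1975, by at least 1.5-fold in each line. Its log2 ratio was 1.11 in H1975, against −1.02 in HCC827 and −0.84 in PC9. At any size, 10 members had an H1975 ratio opposite in sign to those of both other lines. OAS3, IFI35, XAF1, HERC6, IFIH1, CMPK2, SAMD9L and SP110 were higher in resistant H1975 cells, and STAT2 and EPSTI1 lower. Some of these signs rest on little: XAF1 and CMPK2 had 0 reads and 1 read in resistant and parental PC9 cells. The log2 ratio of IFIH1 in PC9 was −0.007 and that of SAMD9L in H1975 was 0.07. The share of all genes with this pattern was not taken. The edgeR test of the difference between H1975 and the other lines gave an adjusted p of 1 for OAS3, at 2.10 ± 0.41 (SE).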

How the results depend on the processing

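The block was the cell line. With no replicate block the comparison of states still called 0 genes and 0 members with edgeR (47 and 0 at an unadjusted p under 0.05), with IFIT3 at 1.12; pairing thus changed no call. Between lines, leaving out 1 line gave 351 to 5695 genes and 1 to 37 members called, lowest without PC9 (351 and 1), then without H1975 (887 and 8), and highest without HCC827 (5695 and 37). The difference between drugs leaves no residual degrees of freedom without a line, so it was not run.

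DESeq2 called 58 genes between states, 72 between drugs, 7019 between lines, 5066 for H1975 against PC9, 4546 for H1975 against HCC827 (17 members) and 4159 for HCC827 against PC9 (31 members). For H1975 against HCC827 limma-voom called 14 members, and a minimum of 10 CPM in 3 libraries left 4. At 50 CPM or more, HCC827 had 0 members at least 2-fold higher, 1 lower and a median of −0.032. PC9 had 0 higher and no member left for a median, and H1975 had 9 higher. Also at 50 CPM, parental H1975 had 5 higher and 2 lower against HCC827 and 10 higher against PC9 (median 4.41), and HCC827 5 higher against PC9. At 1 CPM or more, HCC827 had 2 higher, PC9 had 6 higher, and parental H1975 had 1 member lower than PC9. With 5 CPM added, 0 were higher in HCC827 and 1 in PC9, 3 were lower in parental H1975 than in HCC827, and the medians against PC9 were 2.04 for H1975 and 1.87 for HCC827. With TPM, 9 members were higher in H1975, and 3 were lower in its parent than in HCC827, as with library size alone (3). Unique reads gave 7 higher in parental H1975 than in HCC827. Intron reads gave 4 higher in HCC827 and 2 lower in PC9, and turned OAS3 in HCC827 (0.18) and RSAD2 in H1975 (−0.36). The stricter minimum removes low genes by construction; the cause of the other moves was not tested.

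Library size alone put the median of all genes at −0.11 in HCC827 and TPM put it at −0.11, against −0.01; between parents it was 0.17 and 0.34 for H1975 over HCC827 and 0.19 and 0.33 for H1975 over PC9. Of 1505 single-gene values under alternatives, 1115 kept their direction and side, 300 moved, 56 lost and 32 gained the threshold, and 2 reversed. Reads of fewer than 10 CPM in 30 members limit what PC9 can show.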

Other observations

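Some other genes of the lists also split by line; IFI16, CXCL10 and CXCL11 lie outside the naming rule and were chosen after their values were seen. IFI16, a nuclear DNA sensor, had 389.2 and 342.3 CPM in resistant and parental H1975 cells, 90.1 and 87.4 CPM in resistant and parental HCC827 cells, and 0 reads and 0.0964 CPM in resistant and parental PC9 cells. CXCL10 and CXCL11, chemokines that attract T cells, had 5.11 and 3.93 CPM in resistant H1975 cells and 0.127 CPM each in parental H1975 cells, and no more than 0.145 CPM in the other 4 libraries. SAMHD1, a nucleotide hydrolase that restricts retroviruses, had 76.1 and 50.2 CPM in resistant and parental H1975 cells, 12.3 and 12.7 CPM in resistant and parental PC9 cells, and 0 reads and 0.182 CPM in resistant and parental HCC827 cells.

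In the 21 members with the response element core the median log2 ratio was −0.76 for HCC827, 0.27 for PC9 and 0.88 for H1975, against −0.61, 0.06 and 0.67 for the 11 without it. Between parental libraries their medians were 3.46 for H1975 over PC9 and 3.12 for HCC827 over PC9, against 2.01 and 2.29 without it. These are descriptions, and no difference between the 2 groups was tested.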
